A study of Homo sapiens with 6 samples.

Results

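Troponin, tropomyosin, myosin light chain and other muscle-type contractile genes were followed in DU145 cells, an androgen-independent human prostate cancer line of epithelial origin, after stimulation with hepatocyte growth factor (HGF), which activates the receptor tyrosine kinase c-MET. The set holds 10 genes of the 19775 named on the arrays: TNNC1, ANKRD2, TNNT1, TAGLN, ACTA2, TPM1, TPM2, MYL9, CNN1 and SRF. TNNC1 and ANKRD2 were chosen by their ratio of HGF over vehicle at 24 h, the lowest of all genes, so that ratio is given here as a description. The other 8 were added as smooth-muscle-type genes and as genes controlled by the transcription factor SRF. Cells in medium with charcoal-treated serum received HGF at 25 ng/ml or vehicle and were harvested 2, 8 or 24 h later, and 1 Affymetrix U133plus2.0 array was used for each of the 6 conditions. There is no replicate at any time, so a difference at a single time carries neither a replicate error nor a p-value. Values below are signals scaled to a mean of 150 per array, and those under 30, the floor, were raised to 30 before a ratio was taken. The genes are represented by 24 probe sets, of which 15 exceeded the floor somewhere. These belong to 8 of the 10 genes, while ACTA2 and CNN1 were at the floor in all 6 arrays. The numbers of arrays and of genes above the floor limit the precision of every value below, and on RNA of whole cultures fewer cells that express a gene and less RNA per cell cannot be told apart.

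The thin filament of muscle consists of actin, tropomyosin and troponin. Troponin C binds calcium, troponin T anchors the troponin complex to tropomyosin, and tropomyosin then shifts on actin to admit myosin. Smooth muscle and non-muscle cells contract without troponin, through phosphorylation of the myosin regulatory light chain, and many epithelial cells carry tropomyosin and this light chain in their stress fibres. SRF binds CArG boxes of muscle and cytoskeletal genes together with the actin-regulated coactivators MRTFA and MRTFB or myocardin, and of early response genes together with ternary complex factors such as ELK1, which are phosphorylated by MAP kinases.

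The cell type was checked against marker lists. All 6 epithelial markers were above the floor, with KRT18 between 5916 and 8476, and by the rule given further on KRT19 was higher and EPCAM lower with HGF at 8 h, and CDH1 lower at 24 h. The part of these epithelial changes in the results was not tested. Of 7 skeletal muscle markers 0 were above it, of 5 cardiac muscle markers with a probe set 1 (TNNI3), of 7 fibroblast markers 1 (COL1A1, 50.5 to 97.3), and of 3 leukocyte and 3 endothelial markers 0. Of 7 smooth muscle markers outside the set 2 were above the floor, SYNPO2 and SMTN, and the summed signal of that list lay between 102.9 and 185.7 in the 6 arrays. MYH11, DES, ACTG2, LMOD1 and the coactivator MYOCD, the rest of that list, were at the floor in every array. The contractile genes were thus read in an epithelial background with few or no other muscle markers.

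The RefSeq table of promoters (GRCh38.p14) holds 7 of the 10 genes. It was searched for the exact CArG box (CC, 6 bases of A or T, GG) and for the MCAT element (CATTCC), a binding motif of TEAD factors found in muscle genes. The search covered both strands of the 250 bases before 1 start per gene. Boxes with a mismatch, further away or at other starts of a gene were thus not counted. SRF itself carries 2 CArG boxes there, from 30 to 21 and from 10 to 1 bases before its start, and the other 6 promoters (ANKRD2, TNNT1, ACTA2, TPM1, TPM2 and CNN1) have none in this window. Of all 27305 promoters 1.14% hold a CArG box. The MCAT element is found in 0 of the 7 and in 11.9% of all promoters. Shown are the promoter of SRF, with its CArG boxes in capitals (chr6:43171019-43171268, plus strand), and, without a match, those of ANKRD2, one of the pair chosen at 24 h (chr10:97572191-97572440, plus strand), and TNNT1, which had the highest ratio of the set at 8 h (chr19:55149207-55149456, minus strand).
SRF: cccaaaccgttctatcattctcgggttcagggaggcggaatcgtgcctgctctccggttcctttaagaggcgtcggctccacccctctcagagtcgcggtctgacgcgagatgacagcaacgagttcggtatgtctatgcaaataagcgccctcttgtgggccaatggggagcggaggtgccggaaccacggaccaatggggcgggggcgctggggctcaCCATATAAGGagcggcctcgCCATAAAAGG
ANKRD2: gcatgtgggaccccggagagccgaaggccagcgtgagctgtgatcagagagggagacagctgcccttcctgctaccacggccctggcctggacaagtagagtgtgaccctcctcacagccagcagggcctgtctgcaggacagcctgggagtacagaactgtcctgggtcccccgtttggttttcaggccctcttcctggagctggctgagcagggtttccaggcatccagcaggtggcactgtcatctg
TNNT1: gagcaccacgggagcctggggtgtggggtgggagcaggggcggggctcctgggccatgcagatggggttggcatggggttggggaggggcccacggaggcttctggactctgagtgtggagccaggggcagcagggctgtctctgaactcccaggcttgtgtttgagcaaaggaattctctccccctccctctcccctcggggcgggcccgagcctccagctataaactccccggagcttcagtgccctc

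TNNC1, which encodes the calcium sensor of the thin filament in heart and slow skeletal muscle, was read by 1 probe set, 209904_at. Its signal was 448.8 with vehicle and 425.8 with HGF at 2 h, 229.7 and 496.1 at 8 h, and 556.6 and 68.9 at 24 h. The HGF array of 24 h was below all 5 others, while the other HGF arrays lay within the range of the vehicle arrays. HGF over vehicle was 2.16-fold at 8 h and 8.07-fold lower at 24 h (log2 ratio -3.01), and -0.08 on the log2 scale at 2 h. The vehicle arrays themselves differed, since that of 8 h was the lowest of the 3 and that of 24 h the highest. Against averaged vehicle arrays of 2 and 8 h the log2 ratio at 24 h was -2.22, and at 8 h it was -0.01 against the average of those of 2 and 24 h. Both references at 24 h are set against the same HGF array, which served to choose the gene, and the higher value at 8 h was not found with the other reference.

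ANKRD2, an ankyrin repeat protein of the muscle I-band and nucleus, was also read by 1 probe set (221232_s_at). Its signal was 94.0 with vehicle and 80.6 with HGF at 2 h, 86.7 and 99.9 at 8 h, and 146.7 and 21.7 at 24 h. The HGF array of 24 h was the only one under the floor, so the ratio there is a bound, at least 4.89-fold lower (log2 ratio -2.29 or lower). The log2 ratio was -0.22 at 2 h and 0.20 at 8 h. Against the vehicle arrays of 2 and 8 h the value at 24 h was -1.59 or lower. The next gene above TNNC1 and ANKRD2 in the order of the 24 h ratios was ADGRG2, at -1.67 or lower. Of the relatives of ANKRD2 and their titin-linked partners, ANKRD1, ANKRD23, TTN and NEB, 0 of 4 were above the floor.

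TNNT1, the troponin T of slow skeletal muscle, followed another course (213201_s_at). Its signal was 113.0 with vehicle and 92.0 with HGF at 2 h, 77.6 and 226.9 at 8 h, and 154.8 and 166.7 at 24 h. The HGF array of 8 h was the highest of the 6, 2.92-fold above its vehicle array, and that of 24 h differed from its vehicle array by a log2 ratio of 0.11. The vehicle array of 8 h was the lowest of the 6 for TNNT1, and against the other vehicle arrays, averaged, the log2 ratio at 8 h was 0.78. The low signal of TNNC1 at 24 h was thus not accompanied by a low signal of TNNT1.

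**Figure D1:**
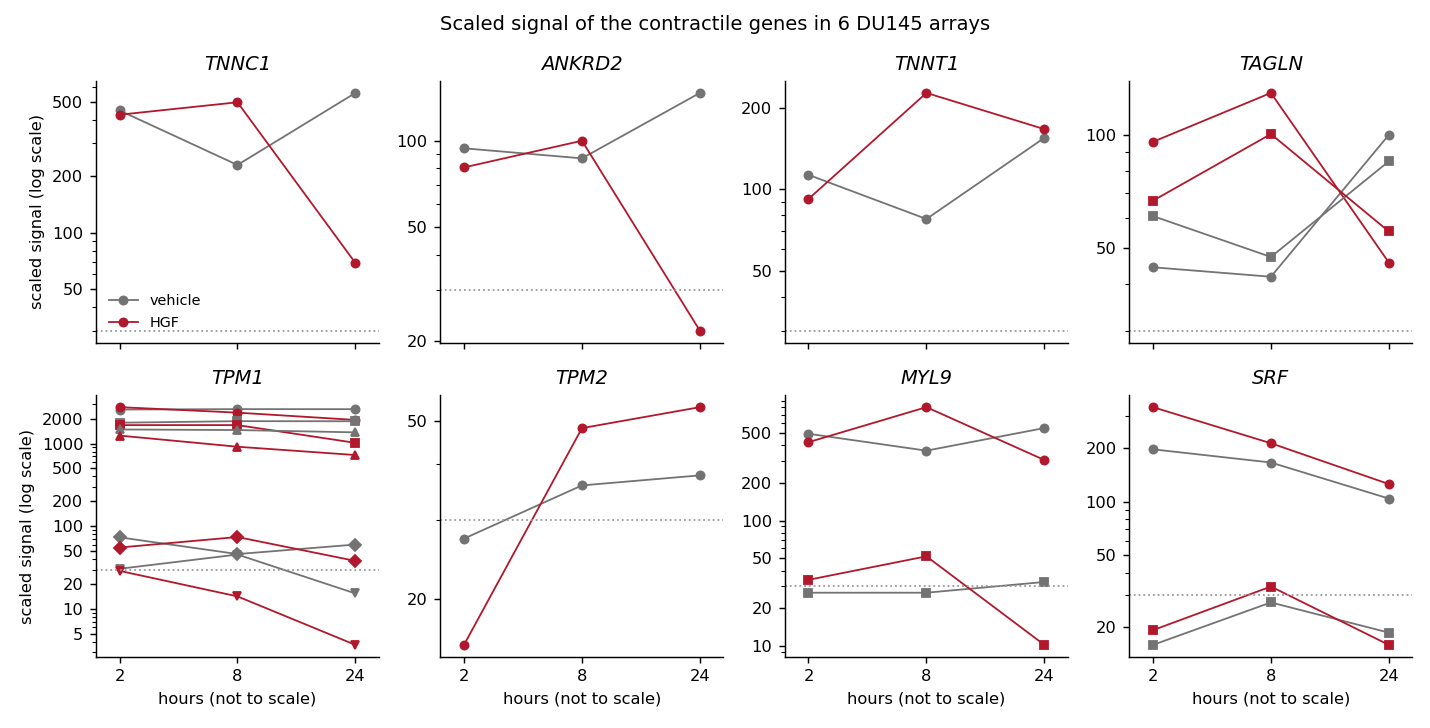
Scaled signal of the 15 probe sets that exceeded the floor (y axis, logarithmic) against time of harvest (x axis, evenly spaced) for 8 contractile genes. Grey stands for vehicle and red for HGF, a point is 1 array, symbols separate the probe sets of a gene, and a dotted line at 30 marks the floor. TNNC1 reads 556.6 with vehicle and 68.9 with HGF at 24 h, and TNNT1 reads 154.8 and 166.7.

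TAGLN, which encodes the actin-binding protein transgelin (SM22) of smooth muscle, was higher with HGF at 8 h and lower at 24 h. The probe set 205547_s_at read 44.3 with vehicle and 95.8 with HGF at 2 h, 41.8 and 129.4 at 8 h, and 100 and 45.6 at 24 h. On 1555724_s_at the vehicle arrays gave 60.7, 47.2 and 85.0 and the HGF arrays 66.7, 100.5 and 55.2 in the order of time. Both were highest in the HGF array of 8 h, and in both the vehicle array of 24 h exceeded the other vehicle arrays and the HGF array of 24 h. The remaining probe set stayed under the floor in every array and contributes a ratio of 0 to the mean of the gene. The mean log2 ratio was 0.42 at 2 h, 0.91 at 8 h and -0.59 at 24 h. At 24 h the direction rests on the vehicle array of that time, since the log2 ratio was 0.04 against the vehicle arrays of 2 and 8 h. At 2 h the probe sets disagreed, with 2.16-fold on the one and 1.10-fold on the other.

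MYL9, the regulatory light chain of smooth muscle and non-muscle myosin II, gave a like picture. Its probe set 201058_s_at read 493.0 with vehicle and 422.3 with HGF at 2 h, 361.3 and 803.7 at 8 h, and 547.5 and 304.3 at 24 h. It was highest in the HGF array of 8 h and lowest in that of 24 h, with a ratio of 2.22-fold at 8 h and a signal 1.80-fold lower at 24 h. The other probe set, 244149_at, lay near the floor, at 26.6 and 33.7, 26.6 and 51.9, and 32.4 and 10.2, and kept the same order at 8 and 24 h. For the gene the log2 ratio was -0.03, 0.97 and -0.48 at 2, 8 and 24 h. These values are bounds because of the dim probe set.

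ACTA2, the smooth muscle alpha-actin, and CNN1, the actin-binding calponin of smooth muscle, gave no ratio. The 3 probe sets of ACTA2 had a highest signal of 23.6, 7.24 and 7.16 in any array, and that of CNN1 a highest signal of 10.4. All lay under the floor with vehicle and with HGF. No statement on their direction can be made at this signal.

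The tropomyosin genes differed from each other. TPM1 has 6 probe sets, of which 5 exceeded the floor somewhere and all 5 had their lowest signal in the HGF array of 24 h. At that time 206116_s_at read 1364 with vehicle and 725.4 with HGF (1.88-fold lower), 210987_x_at 1858 and 1018 (1.83-fold), 206117_at 60.1 and 38.1 (1.58-fold) and 210986_s_at 2601 and 1927 (1.35-fold), while the fifth was under the floor on both sides. Vehicle values of 210987_x_at stayed between 1783 and 1862 and those of 210986_s_at between 2574 and 2603 over the 3 times. For these probe sets the vehicle arrays differed by less than vehicle and HGF at 24 h, while those of 206117_at lay between 46.1 and 73.5, as far apart as its arrays of 24 h. At 8 h 206116_s_at was 1.59-fold lower with HGF and 206117_at 1.61-fold higher, so the probe sets of TPM1 disagreed at that time. The mean log2 ratio of the gene was -0.48 at 24 h, within the central 95% of ratios between vehicle arrays for genes of like signal (-0.85 to 0.54), and no probe set reached 2-fold. TPM2 was above the floor on 1 of 4 probe sets, 204083_s_at, which read 27.3 with vehicle and 15.8 with HGF at 2 h, 35.9 and 48.2 at 8 h, and 37.8 and 53.7 at 24 h. It was higher with HGF by 1.42-fold at 24 h and 1.35-fold at 8 h, the direction opposite to that of TPM1 at 24 h.

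SRF, the transcription factor, was read mainly by 202401_s_at. The signal was 196.1 with vehicle and 337.6 with HGF at 2 h, 165.5 and 212.1 at 8 h, and 104.0 and 125.4 at 24 h. It was higher with HGF than in the vehicle array of the same time, by 1.72-fold at 2 h, 1.28-fold at 8 h and 1.21-fold at 24 h, and it was lower at later times with vehicle as well as with HGF. The other probe set was above the floor in the HGF array of 8 h only, at 33.5. The mean log2 ratio of the gene was 0.39, 0.26 and 0.13. At 24 h it turned to -0.26 against vehicle of 2 and 8 h and to -0.13 against the average of 3 vehicle arrays. No probe set reached 2-fold.

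**Figure D2:**
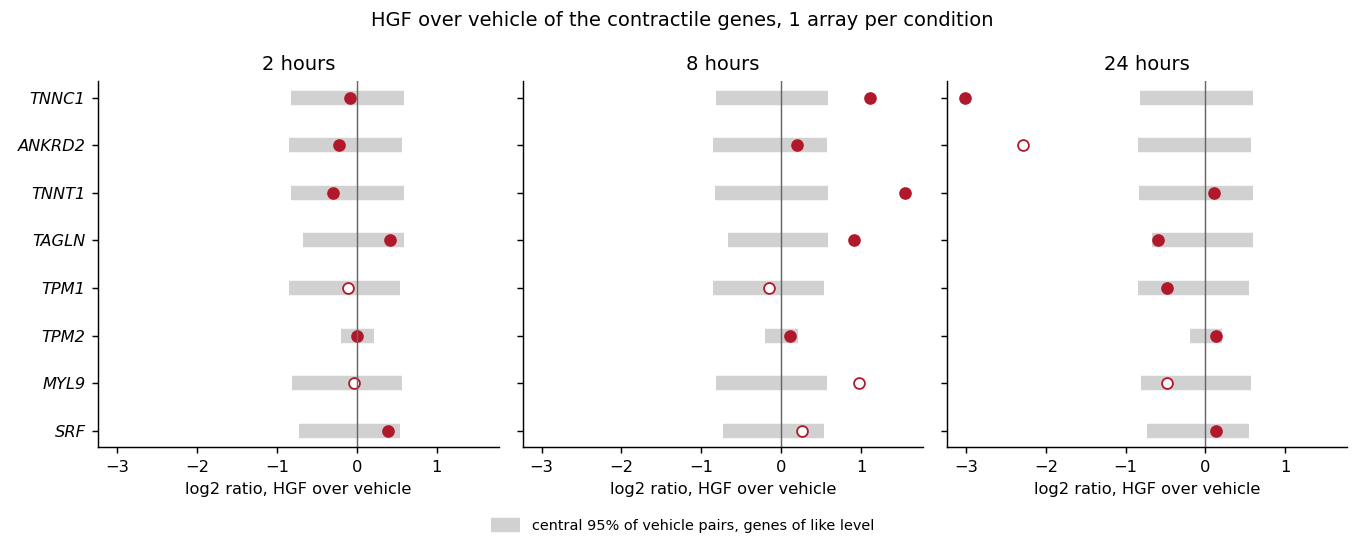
Log2 ratio of HGF over vehicle (x axis) of 8 contractile genes (y axis) at 2, 8 and 24 h, 1 array per condition. Open points are ratios with at least 1 probe set at the floor on 1 side, and grey bars span the central 95% of the ratios between vehicle arrays among the 500 genes nearest in signal. TNNC1 lies at -3.01 at 24 h, outside a bar from -0.82 to 0.59, and TNNT1 at 1.55 at 8 h.

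A gene was counted when some probe set differed by 2-fold or more. The mean over all its probe sets also had to differ by about 1.4-fold or more the same way. This rule was applied here at each time, with thresholds that the study used at 24 h. How the study averaged over probe sets is not stated, and its ratio for TAGLN differs from the mean taken here. At 2 h 0 of the 8 contractile genes above the floor passed in either direction, where 0.769% of the 10791 genes above the floor passed as higher and 0.102% as lower. At 8 h 4 passed as higher (TNNT1, TNNC1, MYL9 and TAGLN) and 0 as lower, against 4.93% and 14.6% of all genes, which were 10.1% and 9.3% under quantile normalization. The median log2 ratio of the 8 was 0.58, and that of all genes -0.02. The central 95% of ratios between vehicle arrays for genes of like signal ended at 0.59 for TNNC1, TNNT1 and TAGLN and at 0.57 for MYL9. The 4 genes lay above it, which passing the 2-fold rule favours, so this is a description. At 24 h 3 passed as lower, TNNC1, ANKRD2 and TAGLN, and 0 as higher, against 1.02% and 1.91% of all genes. Since TNNC1 and ANKRD2 were chosen on that contrast, nothing is read from this count, and of the 6 others TAGLN alone passed. Its ratio of -0.59, which counts a probe set under the floor as 0, lay within its range between vehicle arrays (-0.67 to 0.59). With only probe sets above the floor its ratio was -0.88, which is also the value that the study lists, and for which no such range was taken. TAGLN did not pass with a floor of 60, at 3-fold or against the average of 3 vehicle arrays, and against vehicle of 2 and 8 h TPM1 passed in its place, where 3.22% of all genes did. The median of these 6 was -0.19, with 0.01 for all genes.

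The number at 8 h depends on the vehicle array of that time. With averaged vehicle arrays of 2 and 24 h as reference, chosen after seeing the data, 0 of the 8 passed as higher, where 2.61% of all genes did. With the average over all 3 vehicle arrays 2 passed, TNNT1 and TAGLN, where 2.82% of all genes did. The vehicle array of 8 h also had the lowest signal of the poly-A spike DapX-3, a transcript added to the RNA before labelling, at 701.1 against 1152 to 2322 in the others. The part of that array in the ratios was not tested. In terms of levels alone, TNNT1, TAGLN and MYL9 were higher in the HGF array of 8 h than in any of the 5 other arrays, as were 30.2% of all genes above the floor. Of the 6 genes not chosen at 24 h, TPM1 and MYL9 had their lowest value of all 6 arrays in the HGF array of 24 h, as did 14.3% of all genes. TNNC1 and ANKRD2 did too, which their choice favours.

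**Figure D3:**
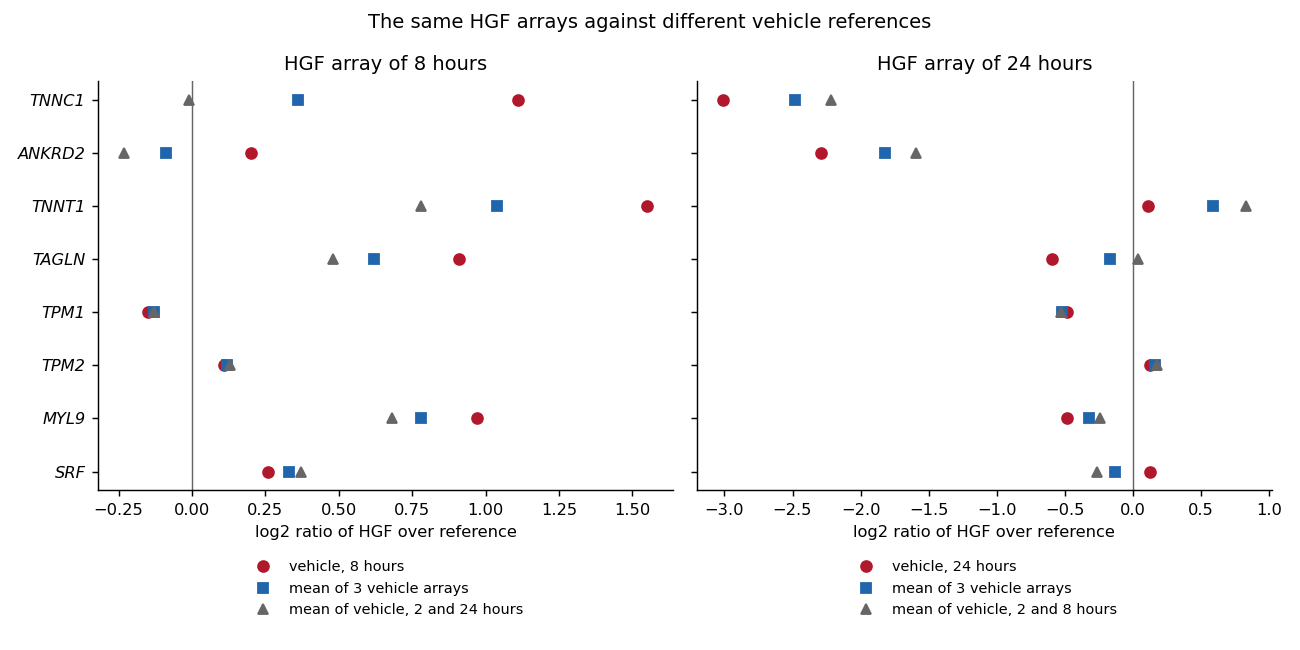
Log2 ratio (x axis) of the HGF arrays of 8 h (left) and 24 h (right) for 8 contractile genes (y axis), taken against the vehicle array of the same time (red), the average over all 3 vehicle arrays (blue) or the mean of the other 2 vehicle arrays (grey). TNNC1 moves from 1.11 to -0.01 at 8 h and from -3.01 to -2.22 at 24 h.

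Differences between vehicle arrays were read by the same rule. The vehicle array of 24 h is the reference of the ratio that chose TNNC1 and ANKRD2, so high values of this pair in it are favoured by the choice and are a description. Between vehicle arrays of 24 and 8 h TNNC1 (log2 ratio 1.28) and TAGLN (0.70) passed the rule as higher, where 0.454% of all genes did, so TAGLN was the gene passing of the 6 not chosen at 24 h, and 0 of the set passed as lower, where 5.5% did. TNNT1 was at 1.00 and ANKRD2 at 0.76 in this comparison, and under quantile normalization, where 2.02% of all genes were higher and 2.06% lower, both passed too. For 24 over 2 h TAGLN (0.55) passed as higher and 0 as lower, with 0.259% and 2.14% of all genes. These shares were 0.686% and 0.732% under quantile normalization. For 8 over 2 h 0 passed, with 0.519% and 0.361% of all genes, and TNNC1 lay at -0.97. Under quantile normalization TNNC1 passed as lower there. RNA integrity, read from ACTB as its 3' over 5' signal, gave 1.17, 1.36 and 1.63 in the vehicle arrays of 2, 8 and 24 h and 1.13, 1.31 and 1.71 in the HGF arrays. Its part in these differences was not tested. Among the HGF arrays, 24 over 8 h gave -2.85 for TNNC1, -1.10 for MYL9, -0.79 for TAGLN and -0.44 for TNNT1.

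An effect of HGF common to the 3 times was tested with limma on all 6 arrays with the time as a block, over 9982 genes. No gene was called at an adjusted p of 0.05 (0% of genes, and 403 genes passed an unadjusted 0.05), and 0 of the 8 contractile genes passed at either threshold. The shared log2 ratio was 0.45 (standard error 0.38) for TNNT1, 0.25 (0.31) for TAGLN, 0.16 (0.30) for MYL9 and 0.08 (0.13) for TPM2. It was -0.25 (0.15) for TPM1 and 0.26 (0.13) for SRF, which were lower in 3 of 3 and higher in 3 of 3 pairs. The share of all genes that kept 1 direction in the 3 pairs was not counted, so nothing is read from this. The fit holds the contrast at 24 h that chose TNNC1 and ANKRD2, so nothing is read from their result in it. Adjusted p-values from limma lay between 0.912 and 0.945 over the 6 other genes. In the fit without 24 h, which leaves out the contrast that TNNC1 and ANKRD2 were chosen on, TNNC1 was at 0.52 (standard error 0.33, adjusted p = 0.897) and ANKRD2 at -0.01 (0.26, adjusted p = 0.998). In that fit TAGLN, at 0.66 (0.26), passed an unadjusted 0.05, as did 4.89% of all genes in it, and its adjusted p was 0.897.

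Of 31 other genes of the striated sarcomere, 29 have a probe set and 2 were above the floor, and 0 passed the rule at any time. TNNI3, the inhibitory troponin of heart muscle, read 31.1 with vehicle and 29.8 with HGF at 2 h, 29.1 and 46.1 at 8 h, and 45.4 and 25.5 at 24 h. Its log2 ratio was at least 0.62 at 8 h and -0.60 or lower at 24 h. MYL4, an embryonic and atrial light chain, was at 0.03 at 8 h and 0.06 at 24 h with values near the floor. TNNC2, TNNI1, TNNI2, TNNT2 and TNNT3 were not above the floor.

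Actin and adhesion genes known as targets of SRF and MRTF, without the set itself, counted 21 genes above the floor of 28. At 8 h 3 of them passed as higher and 0 as lower, against 4.93% and 14.6% of all genes (10.1% and 9.3% under quantile normalization). These were ZYX, which encodes the focal adhesion protein zyxin (log2 ratio 1.52), CNN2, a calponin of non-muscle cells (1.04), and ACTN1, an actin cross-linker (0.72). ZYX read 253.1 with vehicle and 736.5 with HGF at 8 h, above its 4 values at the other times, which reached 333.4. Its 3 vehicle values lay between 253.1 and 293.0. CCN2, a secreted matrix protein, passed as higher at 2 h, with 429.7 and 1464, and was at -0.41 at 24 h. At 24 h 0 of the 21 passed in either direction. The median of the list was -0.01, 0.16 and -0.03 at 2, 8 and 24 h, beside -0.02, -0.02 and 0.01 for all genes.

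Early response genes known as targets of SRF with ternary complex factors, SRF included, counted 9 above the floor of 11. At 2 h 8 of the 9 passed as higher, SRF being the exception, against 0.769% of all genes. EGR1, an early growth response factor, was at 2.06, FOS at least at 1.53, EGR3 at least at 1.52 and IER2 at 1.15. The number was 4 at 8 h and 2 at 24 h, against 4.93% and 1.91% of all genes, and 0 were lower at any time. The median of the list was 1.15, 0.55 and 0.58. Of 7 cofactors of SRF above the floor, MRTFA passed as higher at 8 h (at least 0.52), against 4.93% of all genes (10.1% under quantile normalization). ELK3, a ternary complex factor, passed as higher at 24 h (at least 1.33), against 1.91%. With 1 gene of 7 at each of these times, nothing is read from these numbers. The brightest probe set of ELK3 went from 413.0 (vehicle) to 1292 (HGF) at 24 h. FHL2, a LIM-only partner of SRF, read 296.3 and 447.0 at 2 h, 334.1 and 632.8 at 8 h, and 342.6 and 610.4 at 24 h, and did not pass. MYOCD was under the floor.

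Of 15 genes of non-muscle myosin II and its regulators, all above the floor, 0 passed at 2 or 24 h. Of all genes 0.769% and 1.91% passed as higher at these times, and 0.102% and 1.02% as lower. MYLK, which is also on the list of actin and adhesion targets, is 1 of them. Its brightest probe set had a signal of 175.4 in the vehicle array of 24 h and of 81.2 in the HGF array of 24 h. The log2 ratio averaged over all its probe sets was -0.47 at 24 h, and the gene did not pass. At 8 h 4 passed as lower and 1 as higher, against 14.6% and 4.93% of all genes (9.3% and 10.1% under quantile normalization). Among the lower genes were the myosin phosphatase subunits PPP1R12A (-1.45) and PPP1CB (-1.02). Between vehicle arrays of 24 and 8 h PPP1R12A was at -1.07 and PPP1CB at -0.74, so for these genes the vehicle array of 8 h stood above that of 24 h, the reverse of TNNC1, TNNT1, TAGLN and MYL9. The heavy chains MYH9 and MYH10 were at 0.48 and -0.23 at 8 h. SMTN, the smoothelin of smooth muscle, passed as higher at 8 and 24 h, with a lowest signal of 27.9 and a highest of 127.4.

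**Figure D4:**
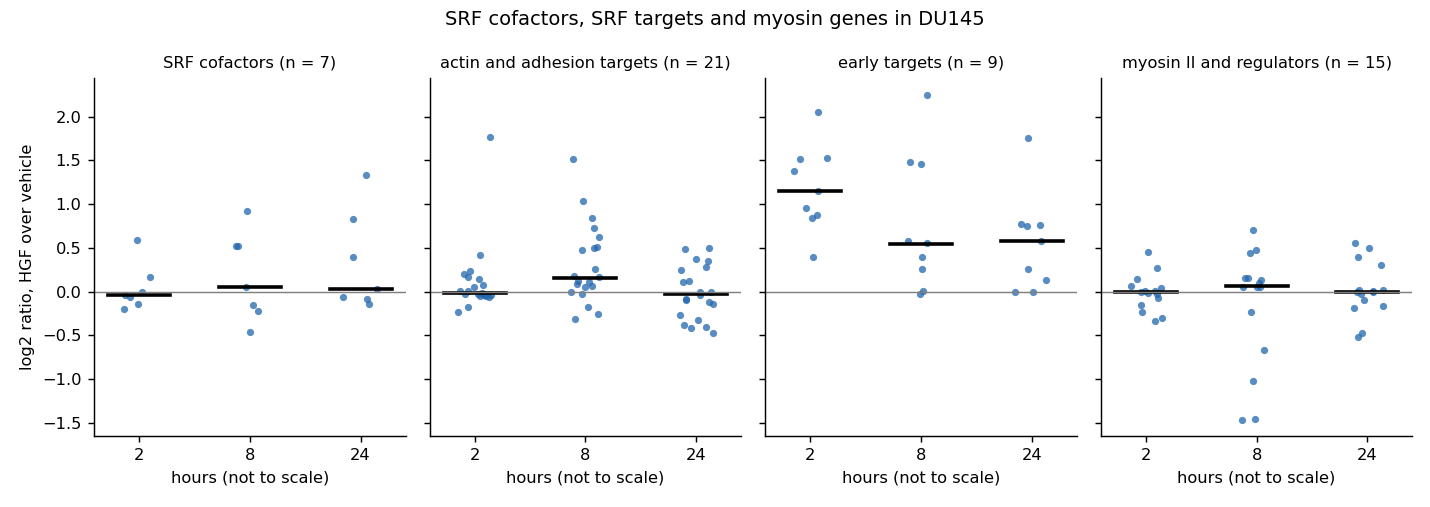
Single genes (points) of 4 lists placed by their ratio with HGF on the log2 scale (y axis) for each time (x axis, evenly spaced), with the median of each list as a bar and the number of genes above the floor in each title. Points are spread sideways for legibility. The early targets had a median of 1.15 at 2 h, and the actin and adhesion targets one of 0.16 at 8 h.

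Genes of similar course were sought by Pearson's correlation of the log2 value over the 6 arrays, among 1501 genes for TNNC1 and 1502 for TAGLN and SRF, above the floor in at least 3 arrays that varied by at least 1 on the log2 scale. Nearest to TNNC1 were UNC93B1 (r = 0.997), a trafficking factor of endosomal Toll-like receptors, PDGFRL (0.988) and JMJD1C-AS1 (0.984). Of the set, ANKRD2 (0.936), chosen like TNNC1 for its ratio at 24 h and so bound to resemble it, and TPM1 (0.824) were nearest to TNNC1, and TNNT1 (-0.010) and TPM2 (-0.580) were not like it. Nearest to TAGLN were MIR31HG (0.949), LOC728392 (0.940) and TIMM50 (0.931), and within the set MYL9 (0.850). Nearest to SRF were NAB2 (0.935), which encodes a corepressor of EGR factors, GTPBP4 (0.916) and MED10 (0.906). At 2 h their log2 ratios were 1.15, 0.34 and 0.40. These coefficients rest on 6 arrays with a common scaling step and are a description without a test.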

How the data were processed

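The authors hybridised RNA of 6 conditions of DU145 cells to 1 array each and deposited linear intensities, 1 for each of 54675 probe sets and array. Per the submitters' processing notes MAS5 was used, in a version not given in the sources used here. Methods of the study add quantile normalization, an array mean of 150 and a floor of 30, which are absent from the deposited intensities (array means 149.1 to 205.4). Scaling to that mean and flooring were done here, with quantile normalization as an alternative.

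Probe sets were named through the platform annotation, which gives 1 symbol for 41097. Log2 ratios were averaged over the probe sets of a gene, and a gene was counted by the rule given in the report, at about 1.4-fold for the mean. Bounds are ratios with 1 side at the floor. The spread between vehicle arrays among the 500 genes nearest in signal stood in for replicate error, and includes time in culture. limma (lmFit and eBayes, Benjamini-Hochberg) was run on genes with a probe set exceeding the floor in 3 or more arrays, with the times taken as replicates. The rule for counts and limma were tested on simulated data. Probe sets ending in _s_at or _x_at can share sequence with related transcripts.

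The genes and lists were chosen with earlier results of these data known. Named are all 10 genes, up to 4 genes of each list that pass the rule (others named, such as TNNI3 and FHL2, were chosen after their values were seen), and the 3 genes most like TNNC1, TAGLN and SRF. Some genes of the non-muscle myosin list are not reported here by name. Alternatives were no floor, a floor of 60, centred ratios, the median or brightest probe set, other probe set filters, other vehicle references, a 3-fold threshold, quantile normalization, and in limma dropping the time block, the filter or any single time, or adding a variance trend. limma 3.58.1 ran in R 4.3.3, and all else in Python 3.11.15 with pandas 2.3.3, numpy 2.4.6 and matplotlib 3.10.9.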

Additional observations from a re-analysis of the deposited data

Results flagged for a closer look

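For 4 of the genes that passed the rule at 8 or 24 h the log2 ratio of HGF over vehicle had opposite signs at these times, with 1 array per condition, so the difference between times was not tested. It was 1.11 at 8 h and -3.01 at 24 h for TNNC1, 0.20 and -2.29 or lower for ANKRD2, 0.91 and -0.59 for TAGLN, and 0.97 and -0.48 for MYL9. The ratio of ANKRD2 at 8 h turned to -0.23 against vehicle of 2 and 24 h and to -0.09 against the average of 3 vehicle arrays. The comparisons at 8 and 24 h share no array.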

How the results depend on the processing

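The numbers of genes of the set that passed the rule were 0 higher and 0 lower at 2 h, 4 and 0 at 8 h, and 0 and 3 at 24 h. In 79 recomputations, which also hold those of the limma count (it stayed at 0), these numbers moved by over 1.5 times in 14. Without the floor they were 2 and 2 at 2 h (7.02% and 6.79% of all genes), 1 lower at 8 h (26.9%), and 1 higher and 6 lower at 24 h (8.61% and 9.66%). At 2 h TAGLN alone of the set passed as higher with the brightest probe set (0.723% of all genes). It did so too with probe sets at 100 or more (1.08%) and under the filter on those above the floor (0.843%). SRF was the 1 gene higher against the average of 3 vehicle arrays (0.704%). At 8 h the number higher was 1 without _s_at and _x_at probe sets (3.96% of all genes), which leaves no value for ANKRD2, TNNT1 and SRF. It was 1 at 3-fold (0.63%), 2 against the average of 3 vehicle arrays (2.82%), and 0 against averaged vehicle arrays of 2 and 24 h (2.61%). At 24 h the number lower was 1 without _s_at and _x_at probe sets (0.838% of all genes). The reference of 2 and 24 h and the filter on probe sets above the floor were chosen after seeing the data.

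The log2 ratio of TNNC1 at 24 h lay between -3.07 and -2.22 over 11 alternatives and that of ANKRD2 between -2.76 and -1.29 over 10. That of TNNC1 at 8 h turned to -0.01 against the vehicle arrays of 2 and 24 h, and that of TAGLN at 24 h to 0.04 against those of 2 and 8 h. Among ratios that had not passed the rule, the same references turned ANKRD2 at 8 h to -0.23 and SRF at 24 h to -0.26. In limma 0 genes of the set passed under each of the 9 alternatives, and of all genes 4 passed without the time block and 3 with the brightest probe set. Leaving out 8 h turned the shared ratio of TNNT1 to -0.09, of TAGLN to -0.08 and of MYL9 to -0.25, and leaving out 24 h turned that of TNNC1 to 0.52. Over the fits that left out 1 time the lowest and highest values were -1.54 and 0.52 for TNNC1, -0.09 and 0.83 for TNNT1, -0.08 and 0.66 for TAGLN, and -0.25 and 0.47 for MYL9. The causes were not tested. The labels give no replicate numbers, and the time block was the pairing used. Signals of ACTA2, CNN1 and most probe sets of TPM2 were under the floor. Ratios of 0.78 for TNNT1, 0.68 for MYL9 and 0.48 for TAGLN at 8 h did not pass against vehicle of 2 and 24 h.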
